A study of Mus musculus with 5 samples.

Results

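Chemokines and their receptors were followed in uteri of mice aged 15 days whose cells with progesterone receptor had lost Dicer. The genes were taken by name: every array name made of CXCL, CCL, CXCR, CCR, XCL or XCR and a number, or starting with CX3C, with CXCL15 left out, and for each gene the probe that was brightest over all 5 arrays. This gave 51 genes on 72 probes, of 29530 genes named on the array. They are 36 ligand genes and 15 receptor genes. Pf4, a platelet chemokine, is among them because the array lists it as CXCL4, while receptors listed under older names such as BLR1 or IL8RB are not.

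The mice were 15 days old, on a C57BL/6J;129S5/Brd mixed hybrid background. Each sample was a pool of uteri read on 1 Illumina bead array. There were 3 control pools (7, 9 and 11), labelled wild type, and 2 Dicer cKO pools (10 and 12), in which Cre made from the progesterone receptor locus (PR-Cre) deleted Dicer, the nuclease that produces mature microRNAs. PR-Cre acts in cells that make the progesterone receptor or descend from such cells, so the other cells of a uterus keep Dicer. The number of uteri per pool and any Cre or floxed allele in the controls are not given in the labels, and p-values measure the spread between pools. Gene names of the files were used; they are mouse genes, although the labels give the chip as Human WG-6 (v3).

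Chemokines are small secreted proteins that bind receptors coupled to G proteins and set the direction in which leukocytes and some other cells move. They are sorted by the spacing of their first cysteines into the CC, CXC, XC and CX3C families, and receptors are named for the family they bind. Some are made steadily in healthy tissue, among them Cxcl12, Cxcl14 and the Ccl21 genes, while others, such as Ccl2 and Cxcl1, are made mainly in inflammation. In the uterus, chemokines are known for bringing in macrophages, eosinophils and natural killer cells.

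Dicer1 itself differed by -0.43 ± 0.09 on the log2 scale (Dicer cKO minus control, SE of the fit; limma adjusted p = 0.0224), with control values of 9.15, 9.08 and 9.12 (pools 7, 9 and 11) and Dicer cKO values of 8.62 and 8.75 (pools 10 and 12). Values of single pools follow this order throughout. The share of the 45281 probes detected ran from 47.0% on Dicer cKO pool 10 to 49.5% on control pool 7. Detected means a detection p under 0.05, and a gene was tested if its probe was detected on at least 2 of the 5 arrays, whichever group they belonged to. Of 15733 genes tested, 6.74% were called at a Benjamini-Hochberg adjusted p under 0.05 in limma, 2.78% higher and 3.96% lower in Dicer cKO pools. The median difference over all of them was 0.01.

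In brief, 4 of the chemokine system genes were called. Cxcl14 and Cxcl16, both CXC ligand genes, rose, and Ccl11, a CC ligand gene, and Cxcr4, a CXC receptor gene, fell. Promoter sequence of the RefSeq table (GRCm38.p6) was matched for 38 of the 51 genes. Of the 4 called genes, Cxcl14, which has the largest difference, and Cxcr4, the receptor gene, had a sequence there, and Ccl11 and Cxcl16 had none. For Cxcl14 and Cxcr4 the 250 bases before the start of transcription are shown 5′ to 3′ as the regulatory sequence nearest to the change. Capitals mark matches, on either strand, to any of 6 motifs searched: the promoter box TATAAA, the STAT motif TTCNNNGAA, the interferon response motif GAAANNGAA, the NF-kB motif GGNNTTTCC, the steroid receptor element core ACANNNTGT and the AP-1 motif TGACTCA.
Cxcl14, chr13:56296552-56296801, minus strand: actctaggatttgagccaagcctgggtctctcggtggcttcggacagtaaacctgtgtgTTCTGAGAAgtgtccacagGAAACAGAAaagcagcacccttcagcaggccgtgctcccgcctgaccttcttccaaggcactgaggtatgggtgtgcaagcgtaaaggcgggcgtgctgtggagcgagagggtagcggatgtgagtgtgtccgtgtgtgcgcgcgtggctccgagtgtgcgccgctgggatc
Cxcr4, chr1:128592300-128592549, minus strand: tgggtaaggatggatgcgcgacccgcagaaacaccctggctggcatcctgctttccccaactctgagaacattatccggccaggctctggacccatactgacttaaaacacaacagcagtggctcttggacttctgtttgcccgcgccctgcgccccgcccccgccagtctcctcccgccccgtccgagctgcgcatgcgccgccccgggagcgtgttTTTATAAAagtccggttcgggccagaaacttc

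The Cxcl14 window held a STAT match (TTCTGAGAA, from 191 to 183 bases before the start) and an interferon response match (GAAACAGAA, from 172 to 164 bases before it), and no TATAAA. The Cxcr4 window held TATAAA between 30 and 25 bases before the start, overlapped by a second match on the other strand. Of 32851 windows of the same length in the table, 12.4% held TATAAA, 7.02% TTCNNNGAA, 7.13% GAAANNGAA, 4.46% TGACTCA, 4.93% GGNNTTTCC and 5.84% ACANNNTGT. A match describes the letters and shows no binding.

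Transcripts of 28 of the 51 genes were detected well enough to be tested, 22 of 36 ligand genes and 6 of 15 receptor genes. On all 5 arrays 22 genes were detected, 19 ligand and 3 receptor genes. Among the 21 genes detected on no array were the neutrophil attractants Cxcl1, Cxcl2 and Cxcl5, the monocyte attractant Ccl2, the lymphocyte attractants Ccl1, Ccl20 and Ccl22, and Ccl6, Ccl24, Ccl26, Ccl28 and Cxcl11. The receptor genes not detected on any array were Ccr1, Ccr1l1, Ccr2, Ccr3, Ccr4, Ccr6, Ccr8, Ccr9 and Xcr1. A gene below detection may still be transcribed at a level that these probes do not register, and the 23 genes not tested read between 4.24 and 5.17 log2 units, where the lowest detected signal of an array lay between 4.93 and 5.04.

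**Figure D1:**
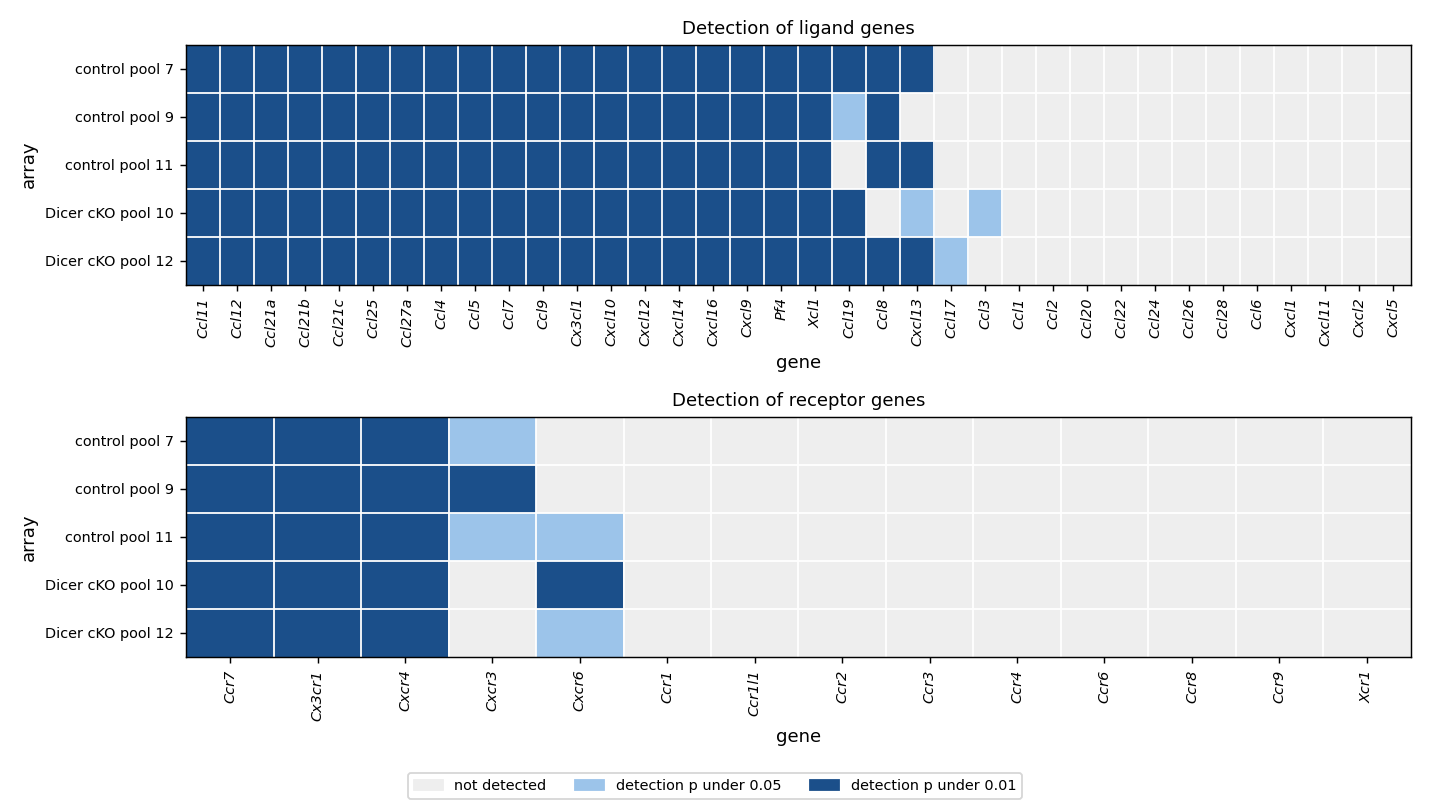
Detection of ligand genes (upper panel) and receptor genes (lower panel), 1 column per gene, on the 3 control and 2 Dicer cKO arrays (rows), shaded by detection p. Most genes are detected on all 5 arrays or on none; 19 ligand and 3 receptor genes are detected on every array.

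Ccl3 and Ccl17 were each detected on 1 Dicer cKO array and no control array. Ccl3, a macrophage product that attracts leukocytes through Ccr1, read 4.62, 4.49 and 4.53 log2 units in the controls against 5.17 and 4.97 in the Dicer cKO pools. Both Dicer cKO pools lay above the controls, and the fold, against the detection limit of the controls, was at least 1.08-fold higher. Ccl17, a ligand of Ccr4, stood at 4.56 and 5.14 in Dicer cKO pools 10 and 12 against 4.51, 4.46 and 4.51, so its signal came from pool 12. Cxcr3, the receptor of Cxcl9 and Cxcl10, was tested only through the controls: it was detected on all 3 control arrays and on neither Dicer cKO array, was not called, and was at least 1.04-fold lower against the detection limit of the Dicer cKO arrays.

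Among the 28 genes tested, 2 rose, 2 fell and 24 did not pass, which is 14.3% called against 6.74% of all genes, a share that rests on 4 genes. For 10 of the 28 (35.7%) the groups did not overlap, 5 with both Dicer cKO pools above all controls and 5 below, against 37.6% of all genes tested (19.9% above and 17.6% below). The share that did not overlap was near that of all genes and is no property of the chemokine genes. At an unadjusted limma p under 0.05, 8 of the 28 differed, against 3266 of all 15733 genes tested.

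**Figure D2:**
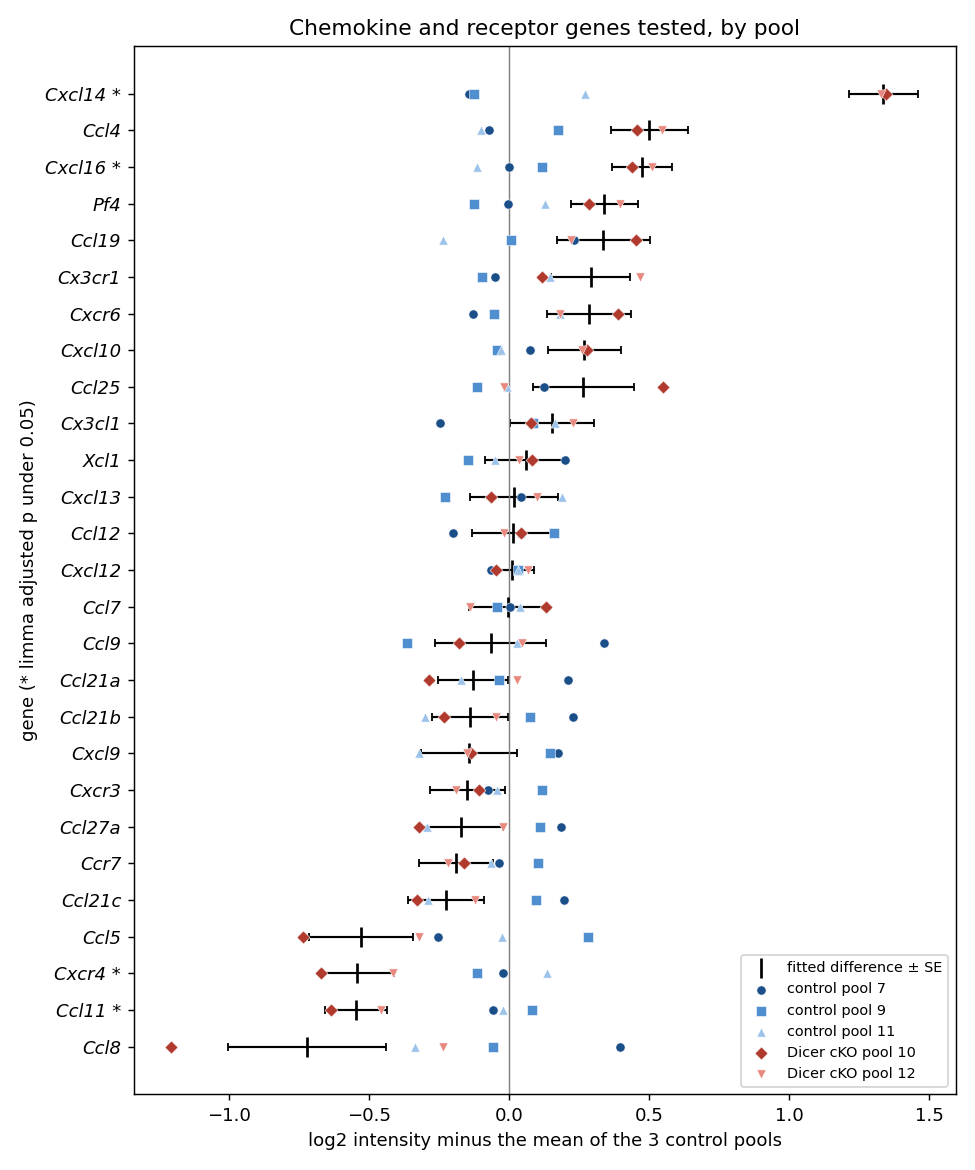
Log2 intensity of the tested chemokine and receptor genes named in the text in each pool, less the mean of the 3 control pools; bars show the fitted difference ± SE, and asterisks mark a limma adjusted p under 0.05. Cxcl14 stands apart at 1.34, the next differences on either side lie between -0.72 and 0.50, and genes in the middle have Dicer cKO pools on both sides of 0 or among the controls.

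Cxcl14 was 2.52-fold higher in Dicer cKO uteri. It encodes a conserved CXC chemokine that healthy epithelia and fibroblasts make steadily and whose receptor is not settled. Its brightest probe read 9.19, 9.21 and 9.61 log2 units in the controls against 10.68 and 10.66 in the Dicer cKO pools. Both Dicer cKO pools lay more than 1 log2 unit above the highest control, pool 11, and close to each other. The difference was 1.34 ± 0.12 (95% interval 1.06 to 1.61; limma adjusted p = 0.000257). A dimmer probe read 7.25, 7.59 and 7.93 against 8.97 and 8.89, a difference of 1.34 ± 0.17 (limma adjusted p = 0.00125 over all probes kept). The deposited intensity of the brightest probe, before any normalization, was 687, 629 and 747 in the controls with a bead error of 17.9, 19.6 and 23.7 (SE), and 1569 and 1701 in the Dicer cKO pools with a bead error of 42.5 and 41.0. On both probes, and in the intensities as deposited, each Dicer cKO pool lay above all controls; the bead error covers the spread within an array and not that between pools. Cxcl14 was called in all 13 alternative settings, with differences from 1.26 to 1.47.

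Cxcl16 rose more modestly. It encodes a chemokine held on the membrane by a stalk, which also takes up oxidised lipoprotein and whose receptor is Cxcr6. Cxcl16 stood at 8.10, 8.22 and 7.99 log2 units in the controls against 8.54 and 8.61 in the Dicer cKO pools. The groups did not overlap, and the difference was 0.47 ± 0.11 (1.39-fold; limma adjusted p = 0.0302). A dim second probe was detected only on the Dicer cKO arrays (5.37 and 5.44, against 4.80, 4.84 and 4.84 in the controls), so it gives only a bound, at least 1.37-fold higher against the detection limit of the controls. In the intensities as deposited, control pools 7 and 9 (338 and 336) lay close under Dicer cKO pool 10 (372), with a bead error of 9.24, 12.6 and 12.1. Leaving out control pool 7 or 11, or either Dicer cKO pool, ended the call, as did a fit without the intensity trend, with a limma adjusted p from 0.0536 to 0.135, while the difference stayed between 0.42 and 0.53 in all 13 alternative settings.

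Ccl11, or eotaxin, attracts eosinophils through Ccr3. It fell, with 8.21, 8.35 and 8.24 log2 units in the controls against 7.63 and 7.81 in the Dicer cKO pools. All controls lay above both Dicer cKO pools, and pool 10 was the lowest. The difference was -0.55 ± 0.11 (0.68-fold; limma adjusted p = 0.0165). A second probe, much nearer the background, had values of 5.68, 5.58 and 5.92 against 5.39 and 5.50, a difference of -0.28 ± 0.15 that was not called (limma adjusted p = 0.344 over all probes kept). With both probes averaged, Ccl11 differed by -0.41 and was not called (limma adjusted p = 0.0619). Nor was it called without control pool 9 (adjusted p = 0.0749 in limma) or without Dicer cKO pool 10 (adjusted p = 0.147 in limma). Its receptor gene, Ccr3, was below detection on every array. Of the eosinophil markers, Prg2, Prg3 and Epx, which encode the granule proteins, were also below detection, and the other 3 on the array (Ear1, Ear2 and Il5ra) had differences of 0.01, -0.03 and 0.24 that were not called.

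Cxcr4, the receptor of Cxcl12, fell as well. Cxcr4 read 7.65, 7.56 and 7.81 log2 units in the controls against 7.00 and 7.25 in the Dicer cKO pools. The groups did not overlap, with pool 10 again the lowest. The difference was -0.54 ± 0.13 (0.69-fold; limma adjusted p = 0.0385). As deposited, the intensity was 256, 224 and 238 in the controls and 148 and 185 in the Dicer cKO pools, with a bead error between 7.34 and 19.9. This was the least stable of the 4 calls. It was lost without any 1 of the control pools, without Dicer cKO pool 10, without the intensity trend and with no detection filter, with a limma adjusted p from 0.0540 to 0.291, and the difference ran from -0.67 to -0.42.

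**Figure D3:**
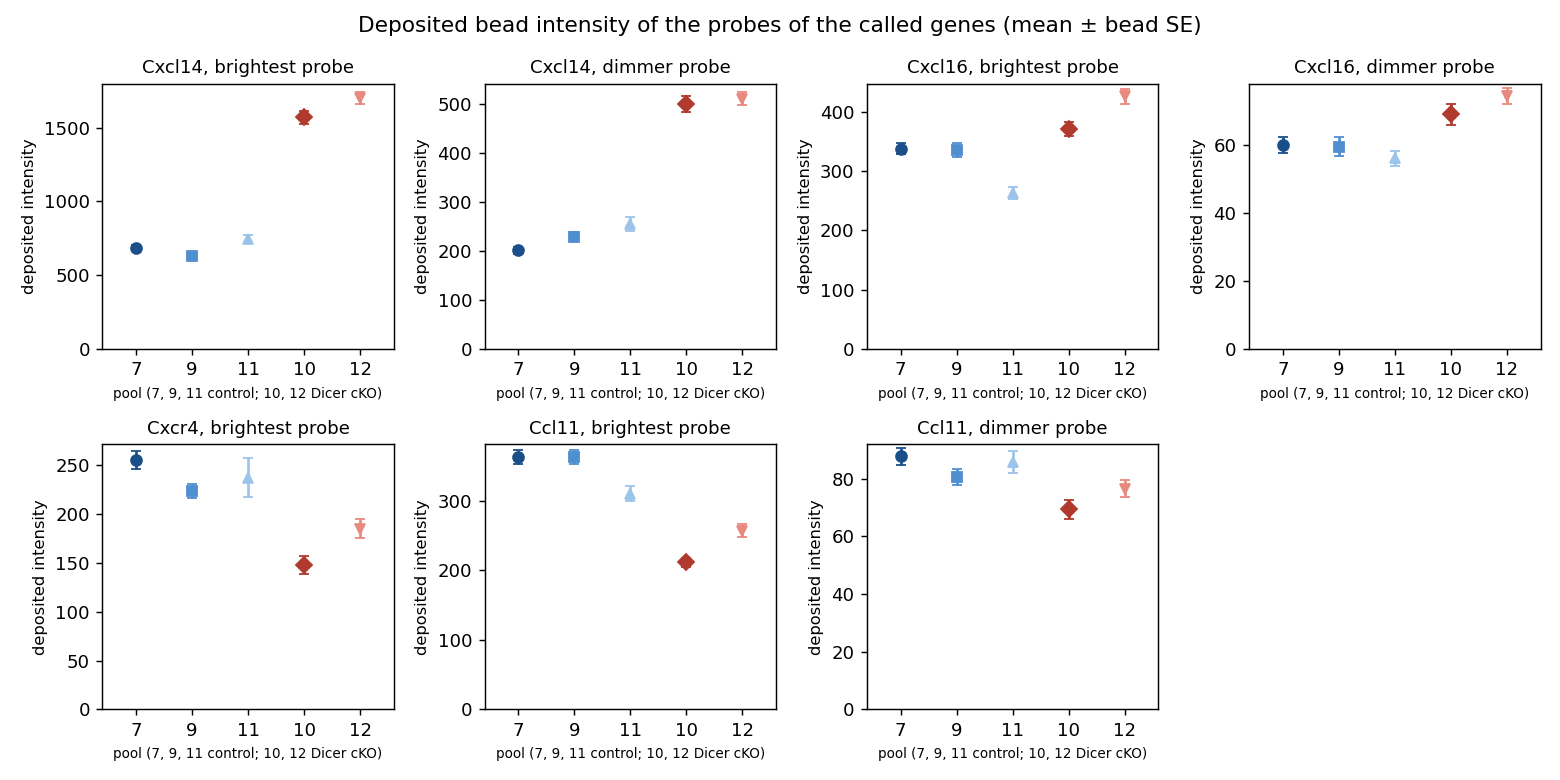
Deposited intensity (linear, before normalization) of each tested probe of the 4 called genes by pool, with bars for the SE over beads; blue marks are control pools 7, 9 and 11 and red marks Dicer cKO pools 10 and 12. Both Cxcl14 probes separate the groups widely, while the Cxcl16, Cxcr4 and Ccl11 probes have a smaller gap, and control pool 7 of Cxcl16 (338) lies close under Dicer cKO pool 10 (372).

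Cxcl12, which draws in cells that carry Cxcr4 and also binds the scavenging receptor Ackr3, showed no detectable difference on its brightest probe. That probe read 10.95, 11.05 and 11.05 log2 units in the controls against 10.97 and 11.08 in the Dicer cKO pools, with a difference of 0.01 ± 0.08 (95% interval -0.16 to 0.18). Its groups were intermixed. The probes of Cxcl12 did not give 1 answer, however. A second probe read 10.44, 10.35 and 10.20 against 9.82 and 10.22, and another 10.28, 10.30 and 10.10 against 9.70 and 10.08. They differed by -0.31 ± 0.12 and -0.34 ± 0.12, and neither was called (limma adjusted p = 0.195 and 0.140 over all probes kept). Pool 10 was the lowest on both. Which transcript forms each probe reads is not known from the files. Ackr3, which the array lists as CMKOR1, differed by 0.15 ± 0.14 and was not called.

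The receptor genes Cx3cr1 and Cxcr6 had positive differences that did not pass the test. Cx3cr1, the fractalkine receptor of monocytes and tissue macrophages, read 7.28, 7.23 and 7.47 log2 units in the controls (pools 7, 9 and 11) and 7.44 and 7.79 in the Dicer cKO pools (10 and 12). Control pool 11 lay above Dicer cKO pool 10, and the difference was 0.29 ± 0.14 (limma adjusted p = 0.280). Cx3cl1, its membrane-bound ligand, differed by 0.15 ± 0.15. Cxcr6, the receptor of Cxcl16 on T and natural killer cells, was dim, detected in 1 control pool and both Dicer cKO pools, and differed by 0.28 ± 0.15.

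The CC ligand genes Ccl4 and Ccl5 had differences of opposite sign, neither of them called. Ccl4, a product of activated macrophages, had 6.18, 6.42 and 6.15 log2 units in the controls against 6.71 and 6.79 in the Dicer cKO pools. Its Dicer cKO pools lay above all controls, and its difference of 0.50 ± 0.14 (95% interval 0.19 to 0.81) missed the threshold (limma adjusted p = 0.0632), as it did in all 13 alternative settings. Its second probe differed by 0.33 ± 0.14. Ccl5, a product of T and natural killer cells, read 6.55, 7.08 and 6.77 against 6.06 and 6.48, with both Dicer cKO pools below all controls and pool 10 lowest. Its difference was -0.53 ± 0.18 (limma adjusted p = 0.135).

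The monocyte attractants showed no common direction. Ccl8, an attractant of monocytes and T cells, had the most negative difference of the 28 chemokine and receptor genes tested, and was not called. Its log2 signal was 6.49, 6.03 and 5.76 in the controls, was below detection in Dicer cKO pool 10 (4.89) and 5.86 in Dicer cKO pool 12, within the range of the controls. The difference was -0.72 ± 0.28 (95% interval -1.35 to -0.09; limma adjusted p = 0.178), and it was -0.24 without pool 10. Without pool 12 the Dicer cKO side is pool 10 alone, which is below detection, and the fit then called Ccl8 (limma adjusted p = 0.0366); its size there is only a bound, at least 2.08-fold lower. Ccl7, Ccl9 and Ccl12 differed by 0.00, -0.07 and 0.01, and their groups overlapped.

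The Ccl21 genes varied among the control pools as much as between the groups. The 3 Ccl21 genes, whose products guide dendritic and naive T cells through Ccr7 and are made by lymphatic endothelium, have near-identical sequences that these probes may not tell apart. Ccl21b read 11.70, 11.55 and 11.18 log2 units in the controls against 11.25 and 11.43 in the Dicer cKO pools, so that control pool 11 was below both. Ccl21a, Ccl21b and Ccl21c differed by -0.13, -0.14 and -0.23, with an SE of 0.13, 0.14 and 0.13, and Ccl27a, a skin chemokine gene, by -0.17 ± 0.15. Ccl19, the other Ccr7 ligand, was dim and differed by 0.34 ± 0.17, and Ccr7 by -0.19 ± 0.13. Among lymphatic endothelial markers, Pdpn, which stroma also makes, was lower by limma (-0.53 ± 0.11), while Lyve1, Prox1 and Flt4 had differences of -0.29, -0.06 and -0.04 that were not called.

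Interferon-induced ligands also did not pass. Cxcl10 read 5.43, 5.31 and 5.33 log2 units in the controls against 5.64 and 5.62 in the Dicer cKO pools, above all controls but by little (0.27 ± 0.13; limma adjusted p = 0.279). Cxcl9 differed by -0.14 ± 0.17. Of the rest, Pf4 was above all controls in both Dicer cKO pools (0.34 ± 0.12; limma adjusted p = 0.135), and Ccl25, a thymus and gut chemokine, was high in Dicer cKO pool 10 (6.40) and within the control range in pool 12 (5.83). A second Ccl25 probe read 5.39, 5.59 and 5.32 in the controls against 5.94 and 5.89, with both Dicer cKO pools above all controls. That probe differed by 0.48 ± 0.14 and was not called (limma adjusted p = 0.0827 over all probes kept). Xcl1, made by T and natural killer cells, and Cxcl13, a B cell attractant, differed by 0.06 ± 0.15 and 0.02 ± 0.16.

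**Figure D4:**
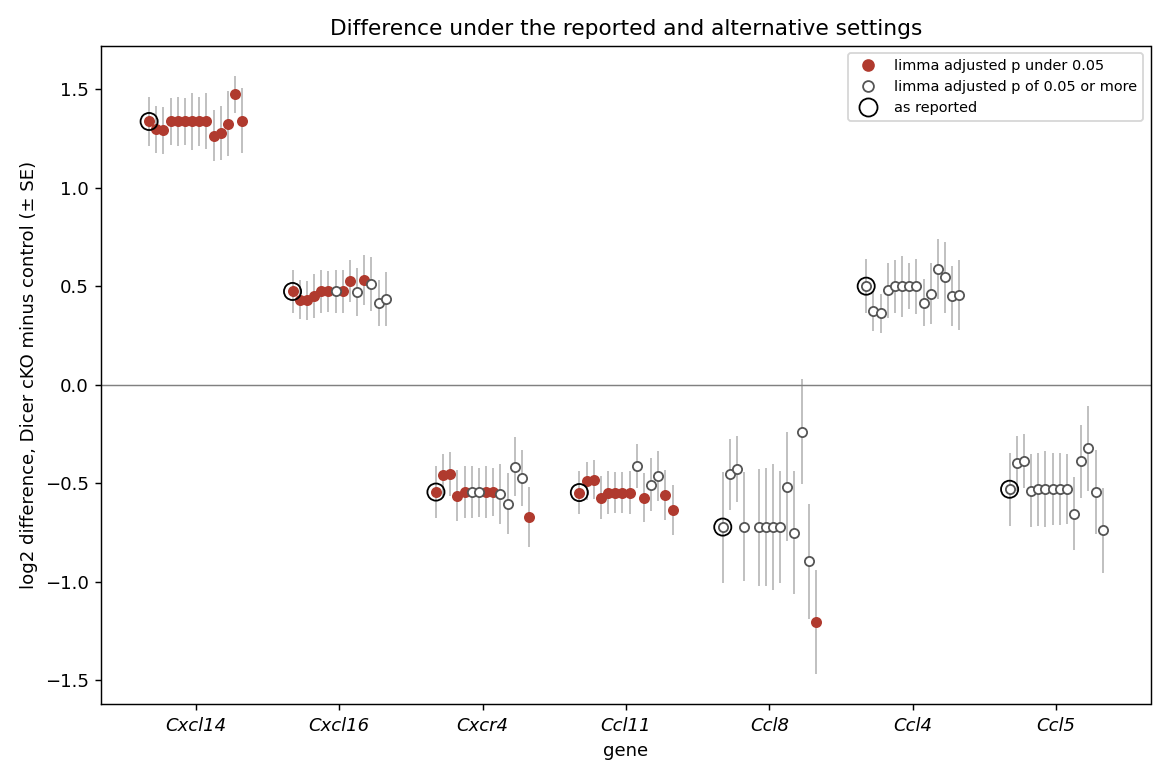
Log2 difference (Dicer cKO minus control, ± SE) of the 4 called genes and of Ccl8, Ccl4 and Ccl5 in the reported analysis (ringed) and in each alternative setting, filled where the limma adjusted p is under 0.05. Cxcl14 is called throughout; Cxcl16, Cxcr4 and Ccl11 keep their direction but lose the call in 5, 6 and 3 of 13 settings, and Ccl8 is called in 1 of 12, the setting that leaves only the Dicer cKO pool in which it is below detection.

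Chemokine genes lie in clusters on the chromosomes. Ccl2, Ccl7, Ccl11, Ccl12, Ccl8 and Ccl1 come in this order among the protein-coding genes of the RefSeq table, and of these Ccl11 was called. Genes were put in a cluster even where another protein-coding gene lay between them, so neighbours named here need not be adjacent. On either side of it Ccl7 and Ccl12 had differences near 0, Ccl8 differed by -0.72 without being called, and Ccl2 and Ccl1 were below detection. In the next cluster Ccl5 (-0.53) and Ccl4 (0.50) stand at opposite ends. Between them lie Ccl9 (-0.07), Ccl6, which was below detection, and, next to Ccl4, Ccl3, which like Ccl4 read higher in both Dicer cKO pools than in all controls. Pf4 lies in a cluster with Cxcl15, a lung and gland chemokine gene that the naming rule left out. Cxcl15 fell by 2.70 ± 0.20 (limma adjusted p = 4.86e-05), while Cxcl1, Cxcl2 and Cxcl5 of the same cluster were below detection.

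Markers of cells that make or answer chemokines were compared between the same pools. In whole tissue, fewer cells of a type and less RNA per cell cannot be told apart. Of 13 macrophage markers, 4 were higher (Lyz2 0.83 ± 0.13, Cd68 0.81 ± 0.13, C1qb 0.56 ± 0.13, Aif1 0.46 ± 0.12) and 1 lower (Cd14 -1.81 ± 0.18), with a median of 0.33, and their summed intensity was 3733 to 4200 in controls and 3835 to 4771 in Dicer cKO pools. These values stand beside Cxcl16, Ccl4, Ccl3 and Cx3cr1, all of which macrophages can express. Of these only Cxcl16 was called, and Ccl3 was detected on 1 array. Other genes that macrophages can express were flat or lower: Ccl7 (-0.005), Ccl12 (0.01), Ccl9 (-0.07) and Ccl8 (-0.72), not called, and Cxcr4 (-0.54), called. The part of macrophages in any of these differences was not tested. Of 9 epithelial markers tested, Krt7 was higher (0.57 ± 0.14) and 4 were lower (Cldn3 -1.48 ± 0.17, Krt18 -0.86 ± 0.09, Krt19 -0.54 ± 0.10, Krt8 -0.37 ± 0.09), with a summed intensity of 9157 to 11989 in controls and 6764 to 6773 in Dicer cKO pools. Of 11 stromal markers, Vim (-0.82 ± 0.12) and Tcf21 (-0.33 ± 0.08) were lower, with a summed intensity of 42648 to 44119 in controls and 36618 to 41056 in Dicer cKO pools. The summed intensity of uterine gland, adipocyte and mast cell markers was also lower in both Dicer cKO pools than in all controls. So was that of T cell (5743 to 6423 in controls against 4401 to 4867) and dendritic cell markers (1035 to 1139 against 795 to 1007). Bright genes weigh most in such a sum. The T cell list had a median of only -0.03, and its 1 called gene, Thy1, is also made by stroma. The dendritic cell list had a median of -0.26, with 1 of 4 tested genes called lower. The summed intensity of the lymphatic endothelial list, which includes Ccl21a, was lower too (2518 to 2824 against 2047 to 2446). Smooth muscle markers summed higher in both Dicer cKO pools (63129 to 65697 in controls against 65957 to 67780). Of 7 gland genes tested 4 were lower, Cxcl15, Cldn10 (-2.23 ± 0.12), Sox17 (-0.87 ± 0.13) and Foxa2, the last below detection in both Dicer cKO pools and so tested only through the controls (at least 1.12-fold lower), with a list median of -0.83 and a summed intensity of 4574 to 5126 in controls and 1767 to 2251 in Dicer cKO pools. Of 5 adipocyte genes tested, Adipoq (-1.42 ± 0.30) and Cfd (-1.38 ± 0.34) were lower, with a median of -1.06 and a sum of 2185 to 3913 in controls against 859 to 1735. Of 6 mast cell genes tested, Hdc, the histamine-forming enzyme gene, was lower (-2.13 ± 0.39) and the other 5 were not called. The mast cell list had a median of only -0.12, and a sum of 3429 to 7833 in controls against 1353 to 2195. The lower sums run the same way as Ccl11 and Cxcr4, and their part in those differences was not tested. Epithelium and stroma can both express Cxcl14, which moved the other way, and the part of either in its difference was not tested.

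Of T cell, natural killer cell and neutrophil markers, 1 gene was called. Of 6 T cell markers tested, Thy1, which stroma also makes, was lower (-0.79 ± 0.11). The others were not called, among them Cd3d and Cd3e, with control means of 5.15 and 6.19 log2 units, Lck, at 7.41, and the bright Cd8b1, at 10.86 with a difference of 0.08 ± 0.08, while Cd4, Cd8a, Cd5 and Trac were below detection on every array. Of 8 natural killer cell markers, 6 were below detection on every array, and Prf1 and Nkg7, with control means of 8.51 and 6.68 log2 units, had differences of 0.07 and 0.02. Among 7 neutrophil markers on the array 4 were below detection on every array, and S100a8, S100a9 and Csf3r were tested and not called (limma adjusted p from 0.978 to 0.984). On other lists, Batf3 (dendritic cells, -0.96 ± 0.19), Vwf (blood endothelium, -0.59 ± 0.13) and Itga2b (platelets, -0.62 ± 0.12) were lower, and on lists with no call the genes with the strongest moderated t were Coro1a (leukocytes, 0.24 ± 0.12), Jchain (B cells, 0.28 ± 0.16), Cnn1 (smooth muscle, -0.34 ± 0.20) and Wt1 (mesothelium, 0.10 ± 0.09), none of them called (limma adjusted p from 0.279 to 0.583). Of the leukocyte markers, Ptprc, which encodes CD45, was itself below detection on every array, although Csf1r and C1qb were detected on all, so a probe below detection does not show that a cell type is missing.

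Genes that act beside or below the chemokine receptors gave 3 calls, all lower, from 2 lists whose counts can be read against the 6.74% called over all genes. Of 8 atypical and related receptor genes tested, none rose and 1 fell, Pitpnm3, described in human as a CCL18 receptor (-1.22 ± 0.16; limma adjusted p = 0.00184), with a list median of -0.23 against 0.01 over all genes. The Pitpnm3 probe was below detection in Dicer cKO pool 10 (4.81 log2 units), so the size of its difference is uncertain. Ackr4, which scavenges Ccl19, Ccl21 and Ccl25, and Ccrl2, which presents chemerin, differed by -0.34 ± 0.13 and -0.38 ± 0.13 without passing. Of 23 genes of receptor signalling, 2 fell, the kinase genes Ptk2b (-1.08 ± 0.21) and Jak2 (-0.74 ± 0.11), and 21 were not called, with a median of -0.02. Ptk2b was also below detection in Dicer cKO pool 10 (4.93 log2 units), which leaves its size uncertain. Gnai2, the main inhibitory G protein subunit of leukocytes, and the arrestin gene Arrb1 differed by 0.00 ± 0.09 and -0.02 ± 0.11.

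Inducers of chemokines gave 1 call. Of 12 genes tested on the NF-kB and inflammatory list, Nfkbia, the inhibitor that NF-kB itself induces, fell by 0.64 ± 0.11 (limma adjusted p = 0.0090), and the other 11 were not called, with a median of -0.04. Tnf, Il1a, Il6, Ifng and Il17a were below detection on every array. Of 18 genes that cleave chemokines or hold them on heparan sulphate, the syndecan gene Sdc1 rose (0.53 ± 0.13; limma adjusted p = 0.0421) and the protease gene Mmp2 fell (-0.28 ± 0.07; limma adjusted p = 0.0481), with a median of 0.05. Dpp4, the peptidase that trims Cxcl12 and Ccl11, differed by 0.19 ± 0.11, and Adam10 and Adam17, which shed Cxcl16 and Cx3cl1 from the membrane, by 0.22 ± 0.14 and 0.16 ± 0.12.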

How the data were processed

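Total RNA of 5 pools was read on 1 array each. The authors deposited, per the file headers, a mean bead intensity per probe, the SD of the bead intensities, a bead number and a detection score that runs from 0 to 1; per the submitters' processing notes the software was BeadStudio. The intensity columns are linear and not normalized between arrays, as their medians (57.5 to 63.0) show. The detection score rises with signal, so 1 minus it was used as detection p. A further table of intensity deposited by the authors, quantile-normalized as judged from equal column medians of 71.1, has row names that were not matched to probes and served only for a count of probes.

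In limma 3.58.1 (R 4.3.3) the background was corrected by normexp from the detection p (offset 16), and arrays were quantile normalized and put on the log2 scale. The 22845 probes detected on at least 2 of 5 arrays were kept, 1 per gene, the brightest over all arrays, and 15733 genes were fitted (lmFit, eBayes with an intensity trend, no covariate, 2-sided), with Benjamini-Hochberg adjustment over all of them. Probes of one gene were also compared in a fit over all kept probes. The offset compresses differences of dim genes. An exact permutation test of 5 pools has 10 splits and cannot go below 0.1. For a gene below detection on a whole group, the fold is a bound against the higher of each array's lowest detected signal and the probe's own signal.

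Array names were matched to symbols with a RefSeq table of GRCm38.p6. The fit was tested on simulated data. The genes, lists and tests were chosen with earlier results of these data known. Every called gene, the tested genes and called genes of each list were named (1 tested gene is counted but not reported here), and further list genes were added with their values in view. The files give no slide or scan, so no batch was tested. Bead number (median 44 on every array) limits the precision of each intensity. Alternatives covered background, offset, normalization, detection filter, spread, probe choice and each pool left out.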

Additional observations from a re-analysis of the deposited data

How the results depend on the processing

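Of the 4 calls, that of Cxcl14 held in all 13 alternative settings, and the differences of Cxcl16, Ccl11 and Cxcr4 kept their sign in all 13. Counts of called chemokine genes were 2 higher and 2 lower. They were 3 higher (Ccl3 added, which was below detection in all controls and not tested otherwise) and 1 lower with no detection filter, 1 and 1 with no intensity trend, and 2 and 1 with the mean of all probes. With 1 pool left out they ranged from 1 to 2 higher and from 0 to 3 lower, Ccl8 being the third without Dicer cKO pool 12, where the pool left is below detection, and 0 lower without control pool 9 or Dicer cKO pool 10; with 1 Dicer cKO pool left, that pool is assumed to vary like the controls. Over all genes, 438 were higher and 623 lower. With no detection filter 286 and with no intensity trend 281 were higher, and with 1 pool left out 108 to 426 were higher and 196 to 560 lower, the fewest without Dicer cKO pool 10. The cause of these shifts was not tested. Of the 24 genes tested and not called, 9 changed sign in some setting and 1, Ccl8, was called in 1. At a detection p under 0.01, 26 in place of 28 genes were detected on at least 2 arrays. Over all probes without a filter, 1036 were called, and 1295 in the authors' normalized intensity table. No paired analysis was possible because the control and Dicer cKO pools share no pool number. Signal over background limits what can be said of the 23 genes not tested.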
